A study of Homo sapiens with 6 samples.

Results

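HERV9 internal sequences are the parts of HERV9 endogenous retroviruses that lie between their long terminal repeats, and they were followed here through 277 loci among 433837 listed repeat loci. A locus was taken when its repeat name was exactly HERV9-int (103 loci), HERV9N-int (60 loci) or HERV9NC-int (114 loci). The counts came from HEK293T, an established human embryonic kidney cell line, transfected with an antisense oligonucleotide (ASO) at 100 nM. The labels give the genotype as WT for the 3 control libraries, which received an ASO against GFP, and as U7 snRNA knockdown for the 3 libraries given a chimeric ASO against U7 small nuclear RNA. The 3 libraries of a group are biological replicates by the design text, and both groups were transfected. The series title asks about repression of HERV1/LTR12 elements by U7 snRNA, which is best known for its role in cutting histone messages at their 3′ end.

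An intact provirus of this kind carries a long terminal repeat at each end and, between them, the internal sequence with the remains of gag, pol and env genes. The long terminal repeats of HERV9 are named LTR12, with letters for subfamilies such as LTR12C, and they hold the promoter from which the internal part is transcribed. Recombination between the ends of a provirus removes the internal part and leaves a solitary repeat, so only some LTR12 loci still have an internal partner. Each locus is identified by its repeat name and numbers only, of which the last runs through the repeat annotation, and no coordinates or lengths come with it, so no genomic position, gene or exon is stated for a locus. Levels of different names are not compared because their lengths are not known. Reads from near-identical copies may have been split between them, dropped or placed on another copy, so the value of a single locus is less certain than a sum.

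Reads in repeat loci numbered between 1926892 and 2819540 in a library. HERV9 internal loci took 469, 404 and 522 of these reads in the controls and 5228, 5560 and 7895 with the U7 ASO. They were 0.0231%, 0.0210% and 0.0264% of the repeat reads in the controls, and 0.250%, 0.237% and 0.280% with the U7 ASO. The exact (Clopper-Pearson) 95% intervals of these shares, which cover counting error only, reached from 0.0190% to 0.0287% in the controls. With the U7 ASO they lay between 0.231% and 0.286%. They treat reads as independent, and would be too narrow if both mates of a read pair were counted. The targeted RNA could not be checked, since the loci named U7 held between 4 and 12 reads in a library.

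RNA from the internal part of HERV9 was more abundant in every U7 ASO library. The 3 names together stood at 251, 217 and 252 CPM (read counts scaled to library size, adjusted by TMM, the trimmed mean of M values) in the controls and at 2458, 2286 and 2810 CPM with the U7 ASO. The groups were far apart, and the lowest U7 ASO library lay above the highest control. The sum rose from 240 ± 20.0 to 2518 ± 267 CPM (mean ± SD, n = 3 each), or 3.39 on the log2 scale (SE 0.18) with an adjusted p of 1.02e-10 in the quasi-likelihood test of edgeR. More cells expressing an RNA and more of it per cell cannot be told apart in such bulk samples. At the same threshold, an adjusted p under 0.05, 1.52% of the 2236 repeat names tested were raised and 1.03% were lowered.

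The 3 names differed in how far they rose. HERV9NC-int stood at 155, 116 and 119 CPM in the controls and at 1623, 1561 and 1766 CPM with the U7 ASO, a log2 fold change of 3.67 (95% interval 3.26 to 4.08, adjusted p = 1.28e-10). HERV9-int stood at 41.8, 48.3 and 69.9 CPM in the controls and at 696, 611 and 913 CPM with the U7 ASO, a log2 fold change of 3.79 (95% interval 3.26 to 4.32, adjusted p = 3.65e-09). In both names the U7 ASO libraries were close to each other against the distance from the controls. HERV9N-int stood at 54.6, 52.6 and 63.2 CPM in the controls and at 139, 114 and 130 CPM with the U7 ASO. Its groups did not overlap either, but its log2 fold change was 1.16 (95% interval 0.63 to 1.70, adjusted p = 0.0121). The HERV9N-int call depended on single libraries: the adjusted p was 0.0996 when control replicate 2 was left out and 0.0722 when U7 ASO replicate 3 was. It was also lost without HERV9N-int_dup1_4979240, the locus of that name with the most reads (adjusted p = 0.0607).

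**Figure D1:**
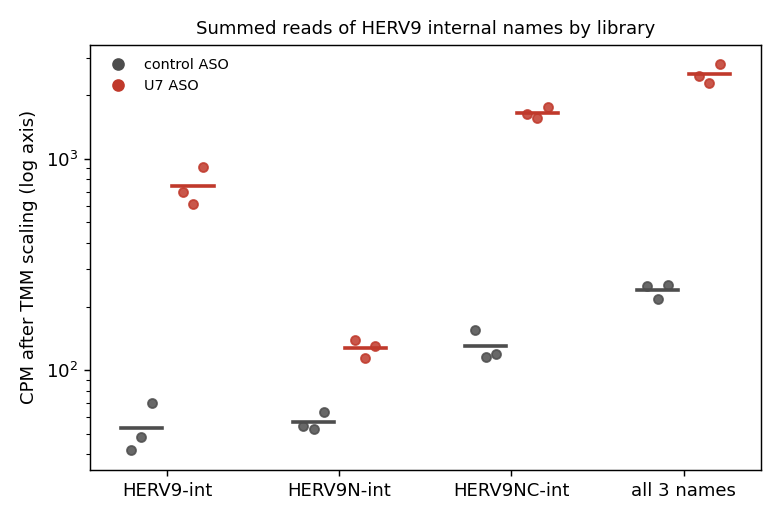
Summed reads of each HERV9 internal name, and of the 3 names together, as CPM after TMM scaling on a log axis. Points are libraries and bars are means of 3, with the control ASO in grey and the U7 ASO in red. No U7 ASO library overlaps a control, and the gap is smallest for HERV9N-int.

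The balance between the names was compared within libraries, where no scaling between libraries is needed. The log2 ratio of HERV9NC-int to HERV9N-int reads was 1.49, 1.13 and 0.90 in the controls and 3.54, 3.77 and 3.77 with the U7 ASO. The log2 ratio of HERV9-int to HERV9N-int was −0.38, −0.12 and 0.15 in the controls and 2.32, 2.42 and 2.81 with the U7 ASO. Both ratios were higher in 3 of 3 U7 ASO libraries than in any control, with mean differences of 2.52 and 2.64. The exact two-sided permutation p was 0.1 for each, the smallest that 3 libraries against 3 allow, and 0.125 after adjustment over the 5 ratios computed here. So no ratio could pass the threshold in this design. The log2 ratio of HERV9NC-int to HERV9-int was 1.88, 1.25 and 0.76 in the controls and 1.22, 1.35 and 0.95 with the U7 ASO, with overlapping groups (exact permutation p = 0.8). HERV9N-int accordingly made up 21.7%, 24.3% and 25.1% of HERV9 internal reads in the controls and 5.66%, 4.98% and 4.61% with the U7 ASO.

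At single loci, most of the 277 had no read in the controls. No control read was counted at 169, and no U7 ASO read at 17. Listing requires a read in some library, so each of the 169 is listed through its U7 ASO reads. These counts thus partly follow from the listing. Loci with a read numbered 56, 61 and 54 in the controls and 166, 161 and 190 with the U7 ASO. Because 85.1% to 96.3% of the nonzero counts at these loci were even, a pattern that counting each mate of a read pair would give, the comparison was repeated at an equal number of pairs. Thinned to 204 pairs, the expected number of loci with a read was 53.6, 61.0 and 52.2 in the controls and 69.5, 65.9 and 67.5 with the U7 ASO. The U7 ASO values stayed above the controls, but by far less than in the unthinned counts. The closest were 65.9 with the U7 ASO and 61.0 in a control. These expected values carry no sampling spread, and their difference was not tested.

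**Figure D2:**
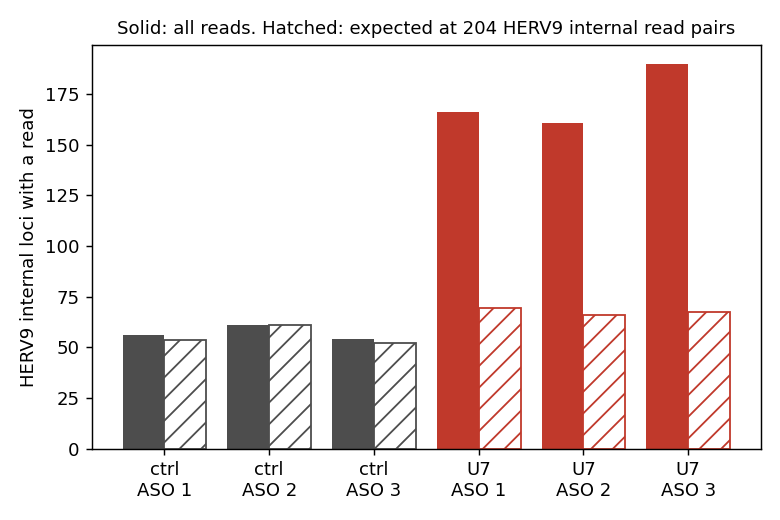
HERV9 internal loci with at least 1 read in each library. Solid bars use all reads and hatched bars give the expected number after thinning to 204 read pairs in every library, where the U7 ASO values are between 65.9 and 69.5 and the control values between 52.2 and 61.0.

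Of the 277 loci, 49 passed the count filter, and 36 of these were raised in the edgeR test. Of the remaining 13, 0 were lowered. DESeq2 and limma-voom also lowered 0, and 0 were lower at an unadjusted p under 0.05. Over all 14380 loci tested, 4.49% were raised and 0.473% were lowered, so 0 lowered among 49 does not set these loci apart. All 15 tested loci without a control read were raised, and for these the filter had required enough reads in the U7 ASO libraries, so they had to differ. Among the 34 tested loci with a control read, 21 were raised. By name, 27 of 33 tested HERV9NC-int loci, 9 of 14 HERV9-int loci and 0 of 2 HERV9N-int loci were raised. With a control read, 18 of 24 tested HERV9NC-int loci, 3 of 8 HERV9-int loci and 0 of 2 HERV9N-int loci were raised. The unfiltered listing, which is no separate support, gave the same order. All 3 U7 ASO CPM values lay above all 3 control values at 46 of 114 HERV9NC-int loci (40.4%), at 25 of 103 HERV9-int loci (24.3%) and at 7 of 60 HERV9N-int loci (11.7%), against 1.88% of all listed loci. No control read was counted at 61 of the HERV9NC-int, 73 of the HERV9-int and 35 of the HERV9N-int loci. Such loci are listed through U7 ASO reads and can separate only upward, so these shares partly follow from the listing. The reverse, with every U7 ASO value below every control, was seen at 4 of the 277 loci, none of which passed the filter. That is 1.44% of these loci, against 0.973% of all listed loci. Limma-voom called 23 raised loci instead of 36.

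The HERV9NC-int locus with the most reads was HERV9NC-int_dup3_4994119. It held 2, 4 and 10 reads in the controls and 412, 407 and 470 with the U7 ASO (log2 fold change 6.18, SE 0.46, adjusted p = 3.13e-06). HERV9NC-int_dup6_3574883 was already transcribed in the controls, with 35, 24 and 26 reads, and reached 268, 284 and 568 with the U7 ASO (log2 fold change 3.56, SE 0.37). HERV9NC-int_dup20_309223 held 2, 0 and 14 reads in the controls and 292, 275 and 359 with the U7 ASO. HERV9NC-int_dup16_299518 held 0, 0 and 2 control reads against 222, 270 and 328, a ratio of 376. Counted as read pairs, 1 against 410, its exact 95% interval, for counting error only, was 67.1 to 14884. In each of these loci the groups were separated by a wide gap. The same was true of the pair HERV9NC-int_dup10_271365 and HERV9NC-int_dup11_271366, which have consecutive running numbers and held between 174 and 271 reads in each U7 ASO library and at most 6 in a control. Such a pair is counted as 2 loci but may be a single insertion.

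Among HERV9-int loci, HERV9-int_dup3_4671253 led with 18, 0 and 5 control reads and 312, 255 and 538 with the U7 ASO (log2 fold change 5.42, SE 0.69). HERV9-int_2906131 had 0 reads in the 3 controls and 202, 264 and 400 with the U7 ASO, at least 265-fold higher when set against a floor of 3 reads over the control group. HERV9-int_dup6_4979237 held 0, 0 and 6 control reads and 146, 152 and 224 with the U7 ASO. The neighbouring copies HERV9-int_dup7_2501777 and HERV9-int_dup6_2501776 and the locus HERV9-int_dup8_2508635 had 0 control reads and were at least 117-fold, 68.5-fold and 67.8-fold higher. The other loci among the 10 largest log2 fold changes were HERV9NC-int_dup1_4861605, HERV9NC-int_4861601, HERV9-int_dup14_3122404, HERV9NC-int_dup4_2514225 and HERV9NC-int_dup9_3739919, at 0 control reads and at least 34.2-fold to 146-fold higher. All these bounds use the floor of 3 reads, and would be lower with a floor of 3 read pairs. Loci with 0 control reads passed the count filter through their U7 ASO reads alone, so their calls and ranks are no separate support for a rise. The calls of HERV9-int_dup14_3122404 and HERV9NC-int_dup9_3739919 were lost with limma-voom (adjusted p = 0.0537 and 0.0626). The first was also lost without U7 ASO replicate 3 (adjusted p = 0.0911) and the second without U7 ASO replicate 2 (adjusted p = 0.104). HERV9NC-int_4861601 and HERV9NC-int_dup1_4861605 lie 4 running numbers apart.

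HERV9N-int had no locus of comparable size. HERV9N-int_dup1_4979240 held 30, 22 and 29 control reads and 92, 112 and 60 with the U7 ASO, with groups that did not overlap but a test that did not pass (log2 fold change 1.60, SE 0.44, adjusted p = 0.0539). DESeq2 called this locus raised (adjusted p = 0.0237), and limma-voom did not (0.0711). HERV9N-int_dup1_3225949 held 6, 12 and 10 reads in the controls and 14, 14 and 10 with the U7 ASO, and its groups overlapped (log2 fold change 0.32, SE 0.99, adjusted p = 0.963). The other 4 leading HERV9N-int loci did not pass the count filter. HERV9N-int_dup16_1114095 held 0 control reads and 10, 2 and 95 reads with the U7 ASO, so nearly all of its reads came from U7 ASO replicate 3. HERV9N-int_5061977 also held 0 control reads and 30, 4 and 12 with the U7 ASO. HERV9N-int_dup1_3005216 held 0, 0 and 28 control reads and 16, 2 and 7 with the U7 ASO, and HERV9N-int_dup3_3754282 held 20, 2 and 6 against 4, 8 and 2.

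**Figure D3:**
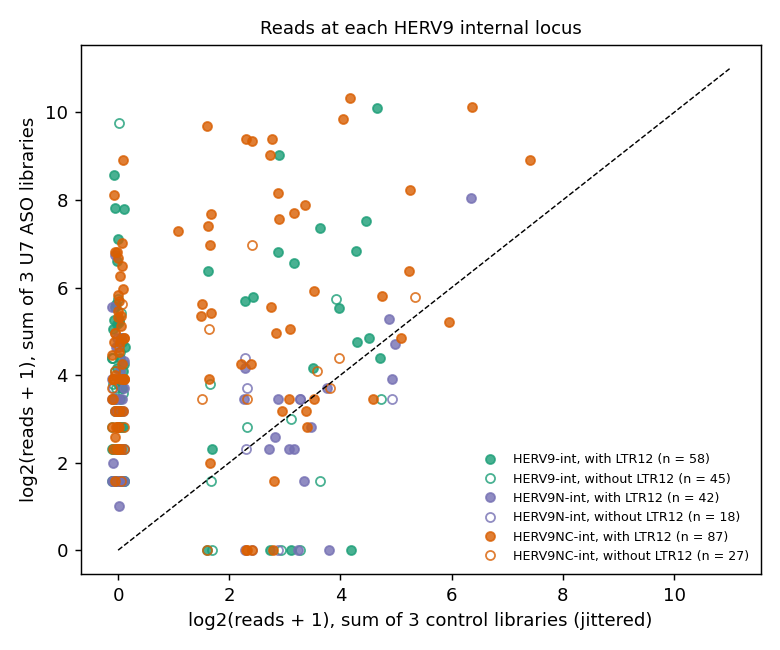
Reads at each of the 277 loci as log2(reads + 1), summed over the 3 control libraries (horizontal, jittered) and the 3 U7 ASO libraries (vertical). Colours give the name, filled points have a listed LTR12 locus within 3 running numbers, and the dashed line marks equal reads. The 169 loci without a control read form the column at 0, and HERV9N-int points lie closest to the line.

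HERV9NC-int_dup9_244288 was the locus with the most control reads. This locus, singled out after its values were seen, held 67, 38 and 52 reads in the controls, 9.41% to 14.3% of their HERV9 internal reads. With the U7 ASO it held 82, 228 and 173 reads, and its groups did not overlap, but it missed the threshold (log2 fold change 1.49, adjusted p = 0.0568). The only tested locus with a negative log2 fold change was HERV9NC-int_dup3_937481, at 34, 12 and 10 control reads and 14, 12 and 10 with the U7 ASO (log2 fold change −0.75, adjusted p = 0.887).

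The loci were next divided by whether an LTR12 locus was listed within 3 running numbers. Of the 277 loci, 187 (67.5%) had such a neighbour, 94 of them on both sides and 93 on 1 side. HERV9NC-int had a neighbour most often, at 87 of 114 loci (76.3%), then HERV9N-int at 42 of 60 (70.0%) and HERV9-int at 58 of 103 (56.3%). A locus is listed only if it has a read in some library, so an LTR12 element without any read would be missed, and LTR12 elements that gained reads with the U7 ASO were more likely to be listed. The names had different partners. LTR12C lay beside 56 of the 87 flanked HERV9NC-int loci (64.4%), 7 of the 58 HERV9-int loci (12.1%) and 0 of the 42 HERV9N-int loci. LTR12, without a letter, lay beside 26 of the HERV9N-int loci (61.9%) and 23 of the HERV9-int loci (39.7%), but only 8 of the HERV9NC-int loci (9.20%).

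Internal loci rose both with and without a listed LTR12 neighbour. Those with a neighbour stood at 221, 163 and 212 CPM in the controls and at 2206, 2055 and 2515 CPM with the U7 ASO (log2 fold change 3.51, SE 0.19, adjusted p = 1.69e-10). Those without stood at 30.0, 53.7 and 39.5 CPM and at 253, 231 and 294 CPM (log2 fold change 2.66, SE 0.26, adjusted p = 1.24e-06). Both sets were separated between the groups. HERV9-int_2906131 alone held 45.0% of the U7 ASO reads of the loci without a neighbour, and the log2 fold change of that set was 1.81 without it (adjusted p = 0.000441). For HERV9-int alone, it held 66.6% of those reads.

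The difference between the sets was smaller than their rise. The log2 ratio of reads with to reads without a neighbour was 2.86, 1.59 and 2.41 in the controls and 3.12, 3.15 and 3.09 with the U7 ASO, a mean difference of 0.83. Every U7 ASO value was above every control, but by a narrow margin over control replicate 1, and the exact permutation p was 0.1 (0.125 adjusted over 5 ratios), the smallest possible. The difference grew to 1.58 when the leading locus of each set was left out. It was 0.42 with neighbours taken within 10 running numbers and 0.38 when only LTR12 loci with a control read counted as neighbours, and in both cases the groups overlapped (exact permutation p = 0.4). Of the loci with a neighbour, 34 of 46 tested were raised, and of those without, 2 of 3, against 4.49% of all loci tested. Of these raised loci, 14 with a neighbour and 1 without had no control read, so they had to differ. Too few reads for testing were held by 141 of the 187 loci with a neighbour and 87 of the 90 without. Loci with LTR12 on both sides had a log2 fold change of 3.70 (95% interval 3.27 to 4.13) and loci with LTR12 on 1 side 3.15 (95% interval 2.70 to 3.60). These intervals overlap, and the difference was not tested.

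The same split was made within each name, and the differences were not tested. HERV9NC-int with a neighbour rose by a log2 fold change of 3.79 (95% interval 3.37 to 4.21), and without one by 2.12 (95% interval 1.40 to 2.84, adjusted p = 0.000559). HERV9-int rose by 3.85 (95% interval 3.30 to 4.41) with a neighbour and by 3.59 (95% interval 2.91 to 4.26) without, with overlapping intervals, the latter value falling to 2.02 without HERV9-int_2906131 (adjusted p = 0.00357). HERV9N-int with a neighbour rose by 1.26 (95% interval 0.67 to 1.86, adjusted p = 0.0144), a call that leaving out control replicate 2, U7 ASO replicate 3 or its leading locus removed (adjusted p up to 0.132). HERV9N-int without a neighbour stood at 5.36, 19.3 and 8.69 CPM in the controls and at 17.9, 14.8 and 19.9 CPM with the U7 ASO, overlapping groups that did not pass (log2 fold change 0.66, 95% interval −0.55 to 1.86, adjusted p = 0.684).

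**Figure D4:**
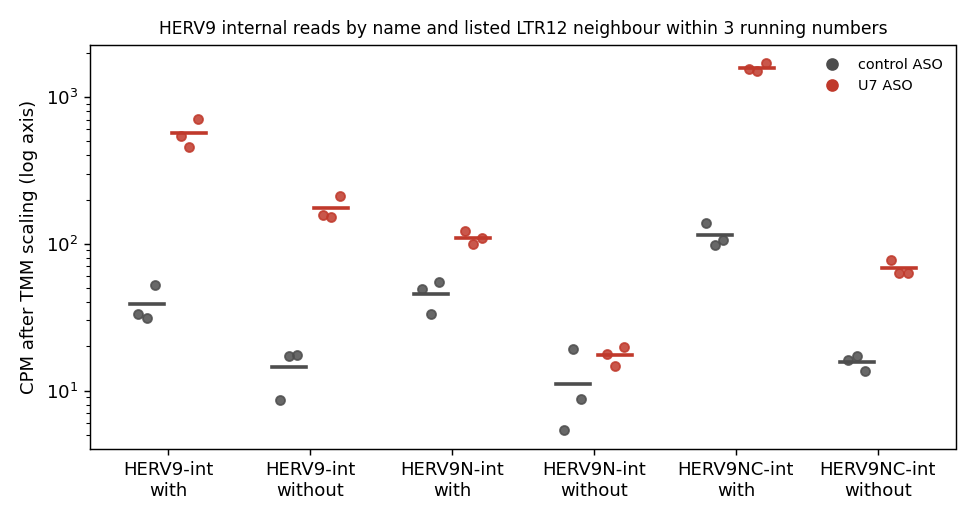
CPM after TMM scaling on a log axis for each name, divided by whether an LTR12 locus was listed within 3 running numbers. Points are libraries, bars are means of 3, grey is the control ASO and red the U7 ASO. The 2 groups overlap only for HERV9N-int without a neighbour.

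A finer split by the name of the neighbour, chosen after the values were seen, set the subfamilies apart within a name. The 54 HERV9NC-int loci beside LTR12C alone held 152, 116 and 154 reads in the controls and 2979, 3321 and 4325 with the U7 ASO (log2 fold change 4.30, 95% interval 3.87 to 4.73). The 14 HERV9NC-int loci beside LTR12 or LTR12_ held 44, 26 and 20 reads in the controls and 58, 54 and 104 with the U7 ASO, and their sum did not pass (log2 fold change 0.88, 95% interval −0.09 to 1.84, adjusted p = 0.410). Leaving out HERV9NC-int_dup3_937481, the locus with the most reads among these 14, gave 2.01 (95% interval 0.84 to 3.18, adjusted p = 0.0653). So loci of the same name held widely different responses, and the interval beside LTR12C lay above the other with and without that locus.

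The other names also had loci beside LTR12 or LTR12_. The 30 HERV9-int loci beside LTR12 or LTR12_ held 36, 22 and 77 reads in the controls and 934, 819 and 1532 with the U7 ASO (log2 fold change 4.26, 95% interval 3.56 to 4.96). The 35 HERV9N-int loci beside the same LTR12 names held 86, 50 and 103 reads in the controls and 222, 223 and 292 with the U7 ASO (log2 fold change 1.29, 95% interval 0.66 to 1.92, adjusted p = 0.0184). The call of that HERV9N-int set did not hold when its leading locus was left out (adjusted p = 0.0986), nor when control replicate 2 or U7 ASO replicate 2 or 3 was (0.0617 to 0.161). The HERV9-int and HERV9N-int intervals did not overlap, although the neighbours carry the same names. Beside LTR12C alone, the 6 HERV9-int loci held 0 control reads and 42, 20 and 52 with the U7 ASO, and HERV9N-int had 0 such loci. Beside other LTR12 names, HERV9NC-int rose by 2.09 (95% interval 1.46 to 2.72) and HERV9-int by 2.73 (95% interval 2.03 to 3.43) on the log2 scale. Differences between these sets were not tested beyond their intervals.

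Loci that follow each other can be pieces of 1 provirus, so members within 3 running numbers of each other were also joined. This gave 209 insertions, of which 152 held 1 member, 46 held 2 and 11 held 3, and 131 had an LTR12 neighbour. The 36 raised loci fell into 29 insertions. In 15 insertions different internal names followed each other. The 5 insertions with the most reads took 33.0% of all HERV9 internal reads with the U7 ASO.

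Both parts of a flanked insertion have a read in some library, since unread loci are not listed, and most reads came from the U7 ASO libraries. The set was thus largely chosen for reads in both parts. With the U7 ASO, 123 of the 131 had reads in both parts, 4 in the internal part only and 4 in LTR12 only. In the controls, 71 of the 131 had no internal read, and 53 had no read in either part. Across the 131 insertions the U7 ASO reads of the internal part and of the LTR12 neighbours had a Spearman rho of 0.50 and, as log2(reads + 1), a Pearson r of 0.60. These insertions share the same libraries, and reads may be exchanged between near-identical copies. The internal part held more reads than its LTR12 neighbours in 77 insertions and fewer in 51, counts that also depend on the unknown lengths.

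The reads of the 2 parts were also compared as a ratio. The log2 ratio of internal reads with a neighbour to the reads of the 201 neighbouring LTR12 loci was 0.31, 0.35 and 0.30 in the controls and −0.67, −0.16 and −0.06 with the U7 ASO, a mean difference of −0.61 (exact permutation p = 0.1, 0.125 adjusted over 5 ratios). The 3 U7 ASO values were all lower than the controls, but LTR12 loci that gained reads with the U7 ASO were more likely to be listed and so to enter the ratio. With LTR12 loci limited to those with a control read the difference was −0.22 and the groups overlapped (exact permutation p = 0.4). That limit favours the controls in turn, since the LTR12 reads it drops came only from U7 ASO libraries. So neither form of the ratio can decide whether the parts grew unequally. The 201 LTR12 loci beside an internal locus held 12.8% of all LTR12 reads with the U7 ASO, and the other 2192 LTR12 loci held the remaining 87.2%.

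**Figure D5:**
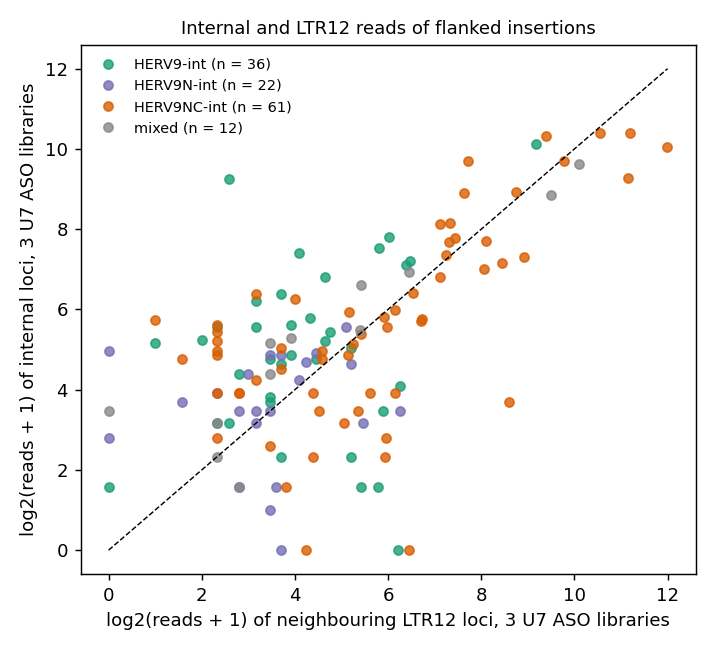
Reads over the 3 U7 ASO libraries in the 131 insertions with an LTR12 neighbour, as log2(reads + 1), with LTR12 neighbours on the horizontal axis and internal loci on the vertical axis. Colours give the internal name, grey marks insertions of mixed names, and the dashed line marks equal reads. Points lie on both sides of the line, 77 above and 51 below.

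The leading insertions show these patterns in their surroundings. HERV9NC-int_dup6_3574883 and HERV9NC-int_dup7_3574884 lie between LTR12C_dup60_3574882 and LTR12C_dup62_3574886. The internal loci together held 41, 27 and 26 reads in the controls and 347, 377 and 631 with the U7 ASO, and the LTR12C loci 24, 18 and 34 against 600, 387 and 511. The next listed locus beyond the second LTR12C, L2c_dup3396_3574887, had 0 control reads and 59, 36 and 67 with the U7 ASO, whereas the loci listed before the first LTR12C held at most 4 reads in a U7 ASO library. Both internal and terminal parts of this insertion were thus read in the controls already.

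HERV9NC-int_dup10_271365 and HERV9NC-int_dup11_271366 lie directly between LTR12C_dup88_271364 and LTR12C_dup89_271367. Their internal reads were 6, 0 and 4 in the controls and 466, 365 and 519 with the U7 ASO, and the LTR12C reads 0, 0 and 26 against 863, 565 and 919. MER9a1_dup18_271370, a long terminal repeat of another family 3 running numbers further on, held 6, 0 and 0 reads against 284, 253 and 400. HERV9NC-int_dup18_309221, HERV9NC-int_dup19_309222 and HERV9NC-int_dup20_309223 form a run between LTR12C_dup107_309220 and LTR12C_dup108_309224. There LTR12C dominated, with 1482, 1205 and 1363 reads with the U7 ASO against 334, 316 and 409 internal reads, so that 20.7% of the reads were internal.

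The other large insertions had a higher internal share, which also depends on the unknown lengths and on which pieces are listed. HERV9NC-int_dup3_4994119 has a listed LTR12C on 1 side only, and 65.7% of the U7 ASO reads of this insertion were internal. HERV9-int_dup3_4671253, between LTR12_dup10_4671252 and LTR12_dup11_4671254, also had 65.7% internal reads. Its LTR12 neighbours held 0, 0 and 3 reads in the controls and 144, 132 and 300 with the U7 ASO. HERV9-int_2906131 has its nearest listed LTR12 locus 5859 running numbers away, and the 2 other loci listed within 8 running numbers held at most 4 reads in a library. An insertion of mixed names, picked after its values were seen, held 3 pieces with different values. HERV9-int_dup6_4979237 rose from 6 reads over the controls to 522 with the U7 ASO. HERV9N-int_4979238, the next piece, had 6 control reads and 5 with the U7 ASO and was not tested. HERV9N-int_dup1_4979240, the last piece, beside another LTR12 locus, had 81 control reads and 264 with the U7 ASO and did not pass.

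Among other repeats the response was most like that of LTR12C. By Euclidean distance between log2 CPM profiles centred over the 6 libraries, the names nearest to the summed HERV9 internal reads were LTR12C (0.60), MLT1J1-int (0.79) and LTR12 (0.82). MLT1J1-int is the internal part of an older retroviral element, and 1 of its 24 listed loci, MLT1J1-int_dup16_4777837, held 522 of its 631 U7 ASO reads and no control read. That locus lies 3 running numbers from LTR12C_dup44_4777840. Of the 7 LTR12 names tested, LTR12, LTR12_, LTR12C, LTR12D and LTR12E rose, by log2 fold changes of 1.96 to 3.50, and LTR12B and LTR12F did not pass.

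Most internal parts of other endogenous retroviruses did not pass, like most repeat names tested. Of the 122 other names ending in -int that were tested, 4 were raised, 1 was lowered and 117 did not pass. Over all 2236 names tested, 1.52% were raised and 1.03% were lowered. The median log2 fold change of the 122 was 0.13, against −0.01 over all names tested. At an unadjusted p under 0.05 in the edgeR test, 19 of them were higher and 3 lower, and the share over all names was not computed. The 4 raised names were MER76-int (log2 fold change 4.19), MLT1J1-int (2.80), HERVH48-int (2.17) and MSTB-int (1.10), and LTR46-int was lowered (−1.53). The 3 with the most reads were HERVH-int, THE1B-int and HUERS-P3-int. HERVH-int stood at 1411 ± 40.8 CPM in the controls and 1280 ± 125 CPM with the U7 ASO (log2 fold change −0.14, adjusted p = 0.761). THE1B-int and HUERS-P3-int did not pass either, at 0.16 (adjusted p = 0.753) and 0.40 (adjusted p = 0.317) on the log2 scale. These names were identified by a shared suffix and not by how they moved.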

How the data were processed

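Total RNA depleted of ribosomal RNA was sequenced in 6 libraries. Counts of reads per repeat locus were deposited, 1 table for each library, and the submitters' processing notes name FastQC 0.11.5, STAR 2.5.3a, featureCounts 1.5.0-p1 and GRCh38. For the strand setting, the repeat annotation and multi-mapping reads, nothing is stated in the labels. Counts were tested with edgeR 4.0.16 (quasi-likelihood, two-sided, R 4.3.3), TMM scaling and filterByExpr (minimum count 10, minimum total 15), at an adjusted p (Benjamini-Hochberg) under 0.05 over all features. Of the listed loci, 14380 (3.31%) were tested, and 2236 repeat names after summing. Sums over sets of loci replaced the 3 names in the name table. Standard errors are the log2 fold change over the root of F. Ratios within libraries, with 1 read added to each sum, were compared by exact permutation. Pairs for thinning were counts divided by 2, rounded up. Alternatives used DESeq2 1.42.0, limma 3.58.1, other scalings, no filter, halved counts, a replicate block and left-out libraries or loci. Splits by the neighbour's name or side were added after values were seen. Code was tested on simulated data. Named loci were the 6 of each name with the most reads, lowered loci, the 10 largest raised log2 fold changes without group overlap and the 5 leading insertions. Members and lists were chosen with earlier results of these data known.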

Additional observations from a re-analysis of the deposited data

How the results depend on the processing

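The calls on the summed reads of all HERV9 internal loci, of HERV9-int, of HERV9NC-int and of loci with and without an LTR12 neighbour held under every alternative run for them, with log2 fold changes of 3.30 to 3.46, 3.58 to 4.04, 3.54 to 3.83, 3.39 to 3.71 and 1.81 to 3.16. HERV9N-int kept its direction (1.08 to 1.25). Its log2 fold change was 1.08 without its leading locus, where the call was lost, and 1.11 to 1.25 over the left-out libraries. In the same way the sum of HERV9N-int beside LTR12 or LTR12_ was 1.23 without its leading locus and 1.07 to 1.46 over left-out libraries, and that of HERV9N-int with a neighbour 1.20 and 1.09 to 1.42. The number of raised loci was 23 with limma-voom, all among the 36, and 25 to 37 over left-out libraries. The difference in the log2 ratio of reads with to without a neighbour was 1.58 without the leading loci, 0.38 with LTR12 loci limited to those with a control read, and 0.49 to 1.12 over left-out libraries. That of internal to neighbouring LTR12 reads was −0.22 with the same limit. The difference for HERV9NC-int to HERV9-int reversed to 0.17 without control replicate 1 and ranged from −0.39. The cause of these changes was not tested. Over all repeat names, the 34 raised and 23 lowered became 59 and 74 with the replicate block, and the settings ran from 25 to 59 raised and from 8 to 76 lowered, the extremes being without U7 ASO replicate 3 (25 and 8), without U7 ASO replicate 2 (30 and 8) and without U7 ASO replicate 1 (46 and 76). Same-numbered libraries had correlations of 0.09, −0.03 and 0.10 over repeat names, and differently numbered ones −0.13 to 0.04. The labels state no pairing, and these small values do not settle whether one exists, so the numbers were not taken as pairs. With a replicate block, 35 loci were raised and no call on a sum changed. DESeq2 gave no adjusted p for HERV9N-int without a neighbour. Read depth limits what can be seen at single loci, and 228 of the 277 loci were not tested.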
